A study of Mus musculus with 12 samples.

Results

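Car2, Cldn11 and Neu4, 3 of the 10749 genes in the deposited table, are genes of the oligodendrocyte lineage and were described across 3 populations sorted from the dentate gyrus of 8-week-old LPA1-GFP mice. The genes were chosen by their measured levels in these same libraries, in the comparisons among all 3 populations. Those levels are therefore given as a description, with no test. In these mice a transgene, written Tg(Lpar1-EGFP)GX193Gsat in the labels, places green fluorescent protein (GFP) under the regulatory sequence of Lpar1, the gene of the lysophosphatidic acid receptor LPA1. The line, on an FVB/N-Swiss Webster background, had been rederived into C57BL/6. All 12 libraries came from mice of this genotype. Stem libraries held LPA1-GFP+EGFR+Prominin1+ cells, where EGFR is a growth factor receptor and Prominin1 a membrane glycoprotein. Progenitor libraries held GFP-positive cells that lacked EGFR, Prominin1 or both, and niche libraries held LPA1-GFP- cells. Each group had n = 4 libraries, each amplified from the RNA of 1000 cells, and it is not stated if a replicate was a single animal or a pool, so the spread between libraries may in part be technical.

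Oligodendrocytes wrap axons in myelin and arise from precursor cells that persist and divide in the adult hippocampus. Precursors pass through a committed, premyelinating stage before they switch on the genes of compact myelin and of myelin lipid synthesis. Lpar1 itself is known to be expressed by myelinating oligodendrocytes, so a reporter of this gene can label cells of the lineage besides neural stem cells. Car2 encodes carbonic anhydrase 2, a cytosolic enzyme that interconverts carbon dioxide and bicarbonate, and is a classical marker of oligodendrocytes that red cells and choroid plexus also express. Cldn11 encodes claudin 11, also called oligodendrocyte-specific protein, which forms the tight junctions between the layers of myelin and is also made by barrier cells of the meninges. Neu4 encodes a sialidase, an enzyme that removes sialic acid from glycoproteins and gangliosides, and in brain is known from precursors and committed oligodendrocytes.

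All 3 are protein-coding genes on the plus strand of GRCm38, the genome build of the files, and no other annotated gene overlaps them. Car2 (ENSMUSG00000027562) spans positions 14886273 to 14900770 of chromosome 3 and Cldn11 (ENSMUSG00000037625) positions 31149920 to 31164324 of the same chromosome. Neu4 (ENSMUSG00000034000) spans positions 94020451 to 94028334 of chromosome 1. Sequence before the annotated start site, 250 bases for Cldn11 and 208 for Neu4, is shown because these genes differed in the population where they were high. They are from RefSeq, build GRCm38.p6, plus strand, at chr3:31149670-31149919 and chr1:94020243-94020450. The RefSeq start of Neu4 lies 42 bases after the annotated one, and its window was ended before the latter. The windows run 5′ to 3′, and capitals mark matches on either strand to CANNTG (the E-box bound by Olig factors and other basic helix-loop-helix proteins), ACAAT or ACAAAG (cores of sites bound by Sox factors), CCAAT or TATAAA. The motifs were chosen after the windows had been seen.
Cldn11: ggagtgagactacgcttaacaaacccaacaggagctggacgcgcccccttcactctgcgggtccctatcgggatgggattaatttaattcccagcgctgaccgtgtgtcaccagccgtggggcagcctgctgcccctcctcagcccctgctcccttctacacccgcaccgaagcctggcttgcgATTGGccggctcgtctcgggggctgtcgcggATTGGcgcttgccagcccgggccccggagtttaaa
Neu4: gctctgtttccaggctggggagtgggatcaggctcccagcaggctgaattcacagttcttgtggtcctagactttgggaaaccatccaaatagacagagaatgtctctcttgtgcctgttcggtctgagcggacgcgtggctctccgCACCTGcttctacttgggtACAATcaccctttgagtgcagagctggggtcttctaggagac
The Cldn11 window held CCAAT on its other strand at 66 and 35 bases before the start site, measured to the first base of the match. CCAAT on either strand was in 33.8% of 32851 promoter windows of this length. The Neu4 window held CANNTG, as CACCTG, at 61 bases, a motif present in 60.3% of windows cut to 208 bases in the same way, and ACAAT at 42 bases, present in 24.4%. Neither window held ACAAAG (14.1% of windows of 208 bases and 16.5% of 250) or TATAAA (9.47% and 12.4%). These matches describe letters in the windows and do not show that a factor bound there.

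The deposited values are log2(RPKM + 1), where RPKM is a read count scaled to exon length and library total, and levels below are RPKM divided by a trimmed-mean (TMM) scaling factor per library. Library totals ran from 7597256 to 22854036 reads and genes above 0 from 8037 to 9700. Niche replicate 1 and progenitor replicate 1 stood apart, with scaling factors of 0.432 and 0.921 against 0.822 to 0.966 and 1.22 to 1.23 in the rest of their groups. Alpha-globin reads (Hba-a1 with Hba-a2) made up 33.0% of niche replicate 1 and 2.62% to 10.8% of the other niche libraries, but at most 0.228% of any GFP-positive library. Results that rest on these 2 libraries are given with and without them. Fewer oligodendrocyte-lineage cells in a sort and less RNA per cell cannot be told apart in such bulk libraries.

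Car2 was abundant in progenitor and niche libraries and lay lower in all 4 stem libraries. Its level was 206.1, 142, 125 and 54.4 in stem replicates 1 to 4. In progenitor it was 1757, 950.4, 1412 and 784. In niche it was 2380, 1447, 926 and 1345. Every stem library thus lay below every progenitor and niche library, while progenitor and niche overlapped. The groups of such a pair do not overlap, with stem below, in 13.5% of the 8363 tested genes for stem against progenitor and in 10.1% for stem against niche (24.8% and 22.7% in either direction). From 1424 to 60974 reads stood behind each Car2 value, so counting error was small beside the spread between libraries. Group means were 132 ± 62.3 for stem, 1226 ± 443 for progenitor and 1524 ± 613 for niche (SD, n = 4). Progenitor exceeded stem by 9.30 times and niche exceeded stem by 11.6 times. On the log2(RPKM + 1) scale the differences were -3.28 for stem minus progenitor, -3.59 for stem minus niche and -0.30 for progenitor minus niche. The last of these turned to 0.32 when libraries were scaled by size alone, and stem minus niche was -2.92 on that scale. With 1 library left out, progenitor minus niche ran from -0.52 (without niche replicate 3) to -0.06 (without niche replicate 1). Among all listed genes of its library, Car2 ranked between 49 and 106 from the top in progenitor and between 63 and 73 in niche. In stem it ranked between 398 and 1218.

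**Figure D1:**
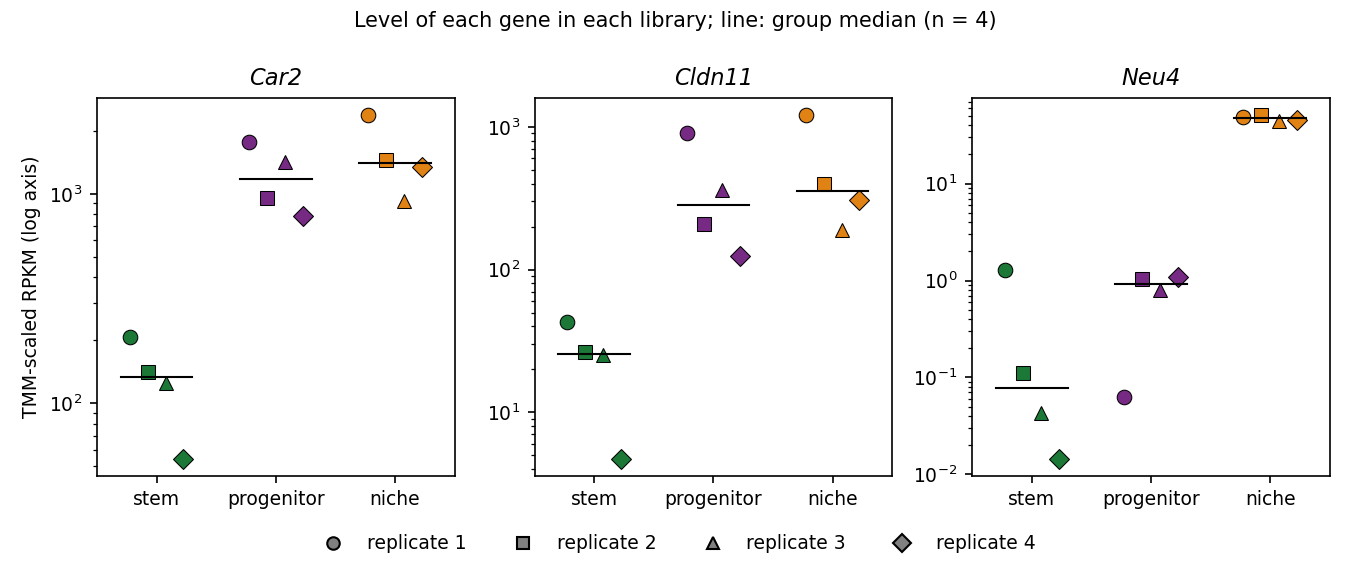
TMM-scaled RPKM of Car2, Cldn11 and Neu4 on log axes in the 12 libraries, with 1 point per library, its shape giving the replicate, and a line at each group's median. Car2 and Cldn11 lie lower in all 4 stem libraries than in any progenitor or niche library, while Neu4 lies above 44 in niche and below 1.30 in all 8 GFP-positive libraries.

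Cldn11 followed the same order of populations with a wider spread. Its level was 42.9, 26.3, 25.1 and 4.74 in stem replicates 1 to 4. In progenitor it was 905, 207, 363 and 125. In niche it was 1211, 400.0, 188 and 308. Stem again lay below both other groups without overlap, and the ranges of progenitor and niche overlapped over most of their width. The highest library was 9.05 times the lowest among stem, 7.23 times among progenitor and 6.44 times among niche libraries, against 3.79, 2.24 and 2.57 times for Car2. Group means were 24.8 ± 15.6 for stem, 400.0 ± 351 for progenitor and 527 ± 464 for niche (SD, n = 4). The log2 differences were -3.89 for stem minus progenitor and -4.32 for stem minus niche. Progenitor minus niche was -0.43, which turned to 0.19 with scaling by size alone and to 0.09 without niche replicate 1. Without progenitor replicate 1 it was -0.95. Without progenitor replicate 1 and niche replicate 1 together, stem minus progenitor was -3.37 for Cldn11 and -3.09 for Car2, and stem minus niche was -3.80 and -3.34.

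Neu4 departed from this order, being low in both GFP-positive populations and high in niche. Its level was 48.6, 51.3, 44.8 and 45.9 in niche replicates 1 to 4, from 1183 to 3762 reads. In progenitor it was 0.063, 1.03, 0.791 and 1.10, from 4, 92, 90 and 142 reads. In stem it was 1.30, 0.112, 0.043 and 0.015, from 64, 6, 3 and 1 reads. Stem and progenitor overlapped, and both lay below niche. Progenitor and niche do not overlap, with progenitor below, in 6.66% of tested genes (15.7% in either direction). Stem replicates 3 and 4 were at or under 3 reads, the limit that a count of 0 allows, so levels this low carry little precision. Group means were 0.366 ± 0.621 for stem, 0.745 ± 0.473 for progenitor and 47.6 ± 2.93 for niche (SD, n = 4). Niche exceeded progenitor by 64.0 times, and the lowest niche library exceeded the highest stem library by 34.5 times. The log2 differences were -0.40 for stem minus progenitor, -5.24 for stem minus niche and -4.85 for progenitor minus niche, and for so low a gene their size depended on the pseudocount.

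The niche values of Neu4 had the narrowest spread of the 3 genes, with the highest library 1.15 times the lowest. This closeness depended on the scaling of niche replicate 1. Before TMM scaling, Neu4 was at 21.0 RPKM in that library and at 42.2, 43.2 and 40.5 in the others. Car2 before scaling was at 1028 RPKM in niche replicate 1 and at 894 to 1190 in the others, so it was highest there only after scaling. For Cldn11 niche replicate 1 was highest on both scales, with 523 RPKM before scaling against 182 to 329.

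The other genes of the lineage were read from 2 lists, one of mature oligodendrocytes and one of precursors and committed cells. Of 39 mature genes 13 were in the table, all of them tested, and of 38 precursor and committed genes 19 were, again all tested. The lists were drawn up with earlier results of these data known, so their counts are set beside the share of all genes called and are no independent evidence. Tests were limma's empirical Bayes test over 8363 genes, with Benjamini-Hochberg adjusted p-values and a threshold of 0.05.

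Mature genes were lower in stem than in progenitor in 12 of 13 cases and higher in 0. Of all tested genes 3.53% were called lower in stem and 3.74% higher. The median log2 difference of the list was -3.21, against -0.06 over all tested genes. Stmn4, a microtubule regulator, was at 3.88 ± 3.76 in stem and 77.6 ± 42.6 in progenitor (SD, n = 4), a log2 difference of -4.14 ± 0.49 (SE, limma adjusted p = 0.000139). Tspan2, a tetraspanin of myelin, differed by -3.94 ± 0.56 (0.000485 by the same test). Ppp1r14a, an inhibitor of a protein phosphatase, differed by -4.24 ± 0.96 (0.0121), but was not called without progenitor replicate 1 (0.0604, the highest over the alternatives run, which began at 0.000145). Mbp, the myelin basic protein gene, Mobp and Cnp were among the genes called too, at -2.83 ± 0.51, -3.71 ± 0.50 and -2.66 ± 0.41. Josd2, a deubiquitinase, was the member not called (-0.91 ± 0.50, adjusted p = 0.386). The count of 12 ranged from 8 without progenitor replicate 1 to 12, and 8 of the 12 genes were called in all 20 alternatives. Gjb1, Gal3st1, Gsn and Ppp1r14a were the others.

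Of 19 precursor and committed genes tested between these GFP-positive populations, 2 were called lower in stem, 0 higher and 17 not called. Of all tested genes 3.53% were called lower in stem and 3.74% higher. The median of the list was -0.41, against -0.06 over all tested genes, and 15 of its 19 differences were below 0. The 2 were Scrg1, whose product is a small secreted protein first described in scrapie, at 69.2 ± 15.4 against 545 ± 160 (SD, n = 4; log2 difference -2.94 ± 0.32, limma adjusted p = 6.83e-05), and Rnd2, a small GTPase (-2.49 ± 0.46, 0.00341). Among genes not called, Tmem100 was at -1.31 ± 0.40 (adjusted p = 0.0601) and Sirt2 at -0.43 ± 0.42 (0.721). The count was 5 with only stem and progenitor in the fit, 4 without niche replicate 1 and 6 without both this library and progenitor replicate 1, of which 5 were lower in stem and 1, Olig2, was higher.

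Against niche, stem libraries were lower in both lists. Mature genes were lower in 12 of 13 cases and precursor genes in 10 of 19, with 0 higher in either list, where 10.6% of all tested genes were called lower in stem and 11.3% higher. The medians were -3.56 and -1.71 against 0.11 over all tested genes. Among mature genes, Stmn4 differed by -4.42 ± 0.49 (limma adjusted p = 1.36e-05) and Cryab, a small heat shock protein gene that astrocytes also express, by -3.77 ± 0.50. Gjb1, a gap junction gene of oligodendrocytes, differed by -3.93 ± 0.82. Among precursor genes, Cntn1, an adhesion molecule that neurons also make, was at 4.01 ± 2.54 against 133 ± 51.3 (SD, n = 4), a difference of -4.83 ± 0.52 (limma adjusted p = 1.1e-05). Pdgfra, the growth factor receptor that marks precursors and also fibroblasts, differed by -3.77 ± 0.60 (0.00033), and Enpp6, a choline phosphodiesterase of newly forming oligodendrocytes, by -3.64 ± 0.52 (0.00011). Ptprz1, a receptor phosphatase shared with stem cells and astrocytes, was not called (0.41 ± 0.37, adjusted p = 0.457). All 12 mature calls and 8 of the 10 precursor calls held in all 20 alternatives. The precursor count was 9 to 13 when 1 library was left out, with 13 without niche replicate 1.

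Progenitor against niche gave different counts for the lists. Of 13 mature genes 0 were called in either direction, and 12 of them in none of the 20 alternatives (Gal3st1 was called without progenitor replicate 1), while 7 of 19 precursor genes were lower in progenitor and 0 higher. Of all tested genes 5.67% were called lower in progenitor and 6.07% higher. The medians were -0.20 for mature and -0.81 for precursor genes, against 0.18 over all tested genes. With scaling by library size alone they were 0.41 and -0.22 against 0.62, and the mature median was also above 0 without niche replicate 1 (0.24), niche replicate 2 (0.14) or progenitor replicate 4 (0.06), so its sign was not stable. Enpp6 was at 2.601 ± 0.890 in progenitor and 33.8 ± 11.5 in niche (SD, n = 4), a log2 difference of -3.23 ± 0.52 (limma adjusted p = 0.000647). Cntn1 differed by -3.50 ± 0.52 (limma adjusted p = 0.000413), Tnr, the matrix glycoprotein tenascin-R, by -3.10 ± 0.52 (0.00101) and Pdgfra by -2.66 ± 0.60 (0.00937). Cryab was at 685 ± 427 against 1069 ± 802, a difference of -0.55 ± 0.50 (adjusted p = 0.510). This comparison shares its progenitor libraries with stem against progenitor and its niche libraries with stem against niche, so the 3 sets of values are not independent, and the difference between the lists was not tested.

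**Figure D2:**
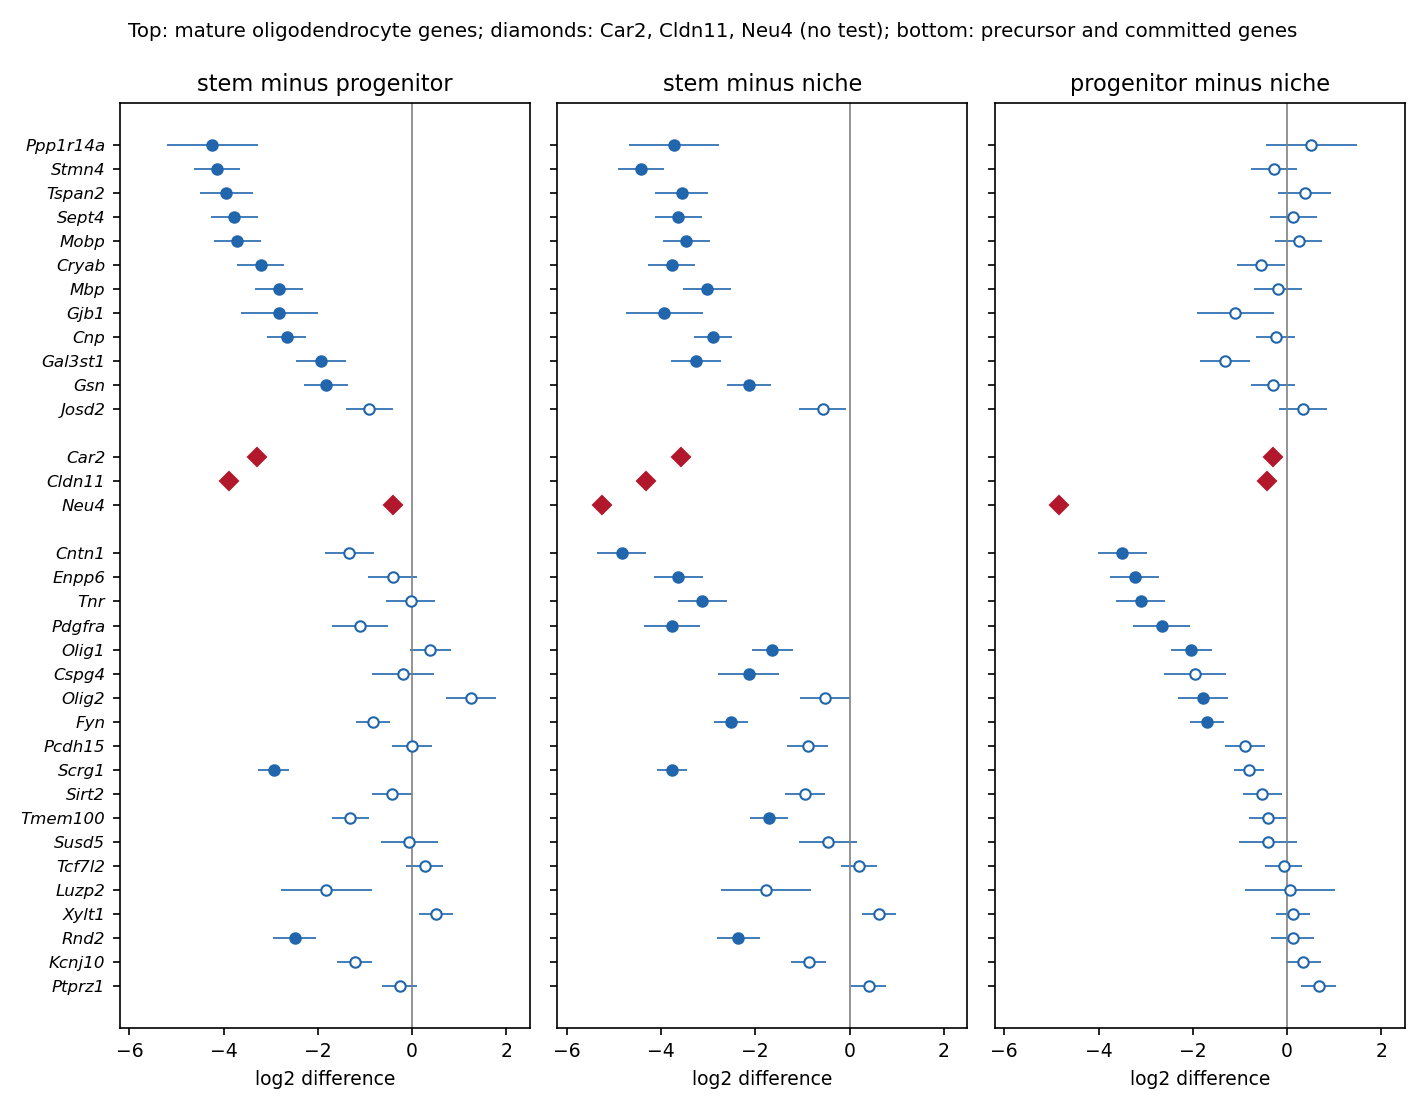
Log2 differences of group means for 12 of the 13 mature genes (top), Car2, Cldn11 and Neu4 (diamonds, no test) and 19 precursor and committed genes (bottom), with bars for the SE and filled circles for limma adjusted p under 0.05. Car2 and Cldn11 lie among the mature genes in each of the 3 comparisons, and Neu4, like Enpp6, lies near 0 for stem minus progenitor and low in both comparisons with niche.

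Olig1 and Olig2, transcription factors that specify the lineage, were named after their values had been seen. Olig1 was at 19.1 ± 4.73 in stem, 15.5 ± 8.83 in progenitor and 64.9 ± 28.4 in niche (SD, n = 4). It differed by -1.64 ± 0.43 for stem minus niche (limma adjusted p = 0.0137), a call lost with scaling by library size alone (0.0925, the highest over the alternatives run, which began at 0.00404). For progenitor minus niche it differed by -2.03 ± 0.43 (limma adjusted p = 0.00643). Olig2 was at 12.5 ± 3.74, 5.42 ± 3.73 and 18.9 ± 8.34. Its progenitor minus niche difference of -1.78 ± 0.53 (limma adjusted p = 0.0391) was lost in 13 of 20 alternatives, with adjusted p-values from 0.00368 to 0.141. Stem minus niche was -0.52 ± 0.53 (adjusted p = 0.517) and stem minus progenitor 1.26 ± 0.53 (0.204), neither of them called. The latter was called without progenitor replicate 1 and niche replicate 1 (0.0305, the lowest over the alternatives, which reached 0.538). Olig1 and Olig2 were above 1 RPKM in all 12 libraries.

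Replicates of a population differed together in the mature genes. Stem replicate 1 had the highest value of the 4 stem libraries for Car2, Cldn11, Neu4 and 10 of the 13 mature genes, and stem replicate 4 the lowest for all 3 and for 12 of the 13. Progenitor replicate 1 was highest in 11 of 13 mature genes and progenitor replicate 4 lowest in 13. Neu4 was lowest in progenitor replicate 1, with 4 reads against 90 to 142 in the other 3. That library had 8455 genes above 0, against 9608 to 9700 in the other 3. Of the 19 precursor genes it was lowest in 9 and highest in 8. The part of this in its Neu4 value was not tested. The summed level of the 13 mature genes was 605, 412, 365 and 185 in stem replicates 1 to 4. In progenitor replicates 1 to 4 it was 6038, 2873, 4977 and 1968. Markers of some other cells had a like order in stem. The summed level of the 5 mural cell genes in the table, of 12 listed, was 185, 98.3, 45.1 and 11.6 there. That of 6 of 17 red cell symbols was 2093, 666, 282 and 244, and that of 10 of 16 choroid plexus genes 95.8, 64.2, 42.9 and 25.5. The 7 of 15 macrophage genes did not share it, with 2930, 7550, 2335 and 1974, nor did the 8 of 13 astrocyte genes, with 1173, 565, 821 and 701. Meninges and fibroblast genes (9 of 16) did not share it either, with 32.1, 12.1, 68.7 and 7.87. The same held for 7 of 12 endothelial genes, with 57.1, 31.9, 42.2 and 18.1, and 5 of 14 mature neuron genes, with 31.5, 18.6, 25.8 and 21.7. The part of these other cells in the spread of Car2 and Cldn11 was not tested.

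**Figure D3:**
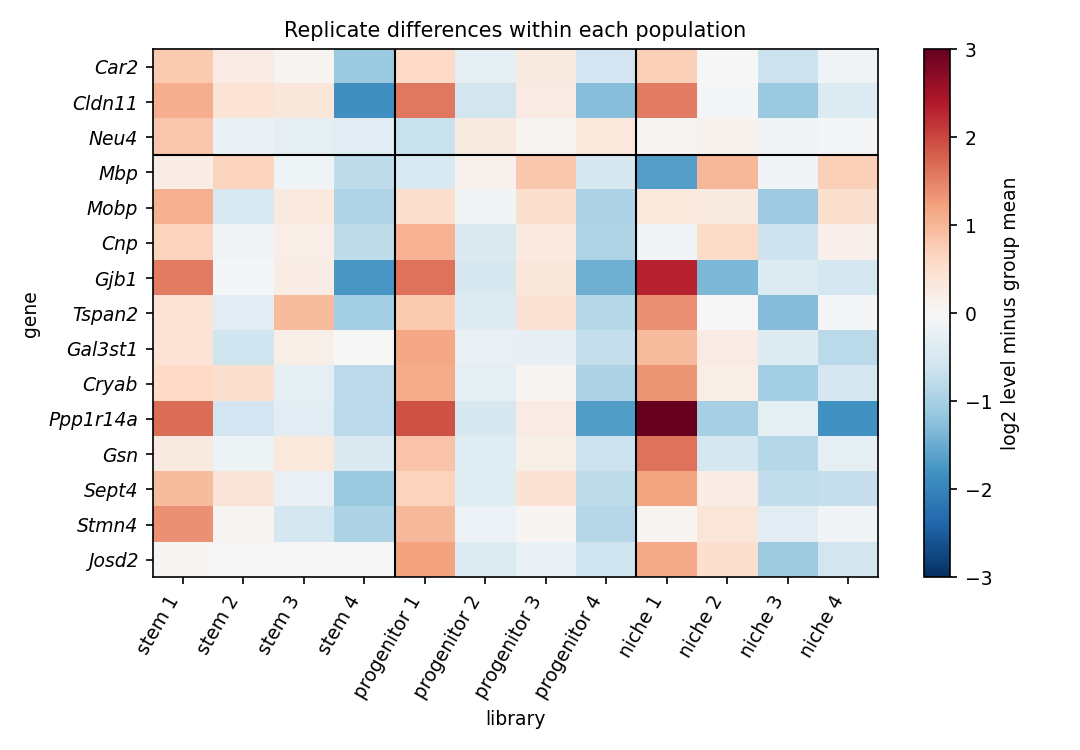
Log2(TMM-scaled RPKM + 1) of each library minus the mean of its population, for Car2, Cldn11, Neu4 and 12 of the 13 mature genes, with red above and blue below the mean and colours ending at 3 on either side, which Ppp1r14a in niche replicate 1 reaches. Stem replicate 4 and progenitor replicate 4 are mostly blue, progenitor replicate 1 is mostly red except for Neu4 and Mbp, and Neu4 is near 0 throughout niche.

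Genes with the pattern most like each member were ranked by Pearson's r over the 12 libraries, a description in which the points share library, depth and population. For Car2 these were Sept4, a septin (0.987), Cldn11 (0.982), Stmn4 (0.981) and Cryab (0.98). Of 8362 other tested genes Cldn11 ranked 2 for Car2, and Car2 ranked 3 for Cldn11. For Cldn11 the nearest were Cryab (0.984), Ttyh2, a chloride channel family gene (0.984), Car2 (0.982), Sept4 (0.977) and Gng11, a G protein subunit (0.966). After each population's mean was subtracted, Car2 and Cldn11 had r of 0.97 over the 12 libraries. The median of this r over the mature list was 0.81 with Car2 and 0.79 with Cldn11, and over the precursor list -0.03 and -0.06. It was not computed over all tested genes. These deviations also carry the scaling of each library, that of niche replicate 1 included. For Neu4 the nearest were Lrrn2 (0.989), Scamp3 (0.987), Susd4 (0.985), the adhesion gene Icam5 of neurons (0.984) and mt-Nd1, a mitochondrially encoded subunit of complex I (0.982). Once population means were subtracted, their r with Neu4 was 0.88, 0.63, 0.77, 0.33 and -0.03 in this order. These neighbours of Neu4 are not genes of the lineage lists: Lrrn2 was at 1.16, 1.05 and 38.7 and Icam5 at 0.115, 0.283 and 18.0 in the order stem, progenitor, niche. Mitochondrially encoded genes took 15.4% to 25.8% of the reads of niche libraries and 9.25% to 14.1% in the other 8, and the part of this in the Neu4 level was not tested. Neu4 had r of 0.588 with Car2 and 0.547 with Cldn11, and 0.17 and -0.01 once population means were subtracted. The median r of the mature list was 0.964 with Car2 and 0.950 with Cldn11 but 0.518 with Neu4, and that of the precursor list was 0.425, 0.401 and 0.590. Over all tested genes the median was -0.047, -0.054 and -0.105. With population means subtracted, the median with Neu4 was 0.01 for the mature and 0.14 for the precursor list.

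Car2 exceeded Cldn11 per length in all 12 libraries, by 4.802, 5.39, 4.997 and 11.5 times in stem replicates 1 to 4. In progenitor the ratio was 1.94, 4.59, 3.89 and 6.26, and in niche 1.97, 3.62, 4.92 and 4.37. Replicate 1 of progenitor and of niche, the libraries that stood apart, had the lowest ratios, and stem replicate 4 had the highest.

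Other carbonic anhydrases were called lower in stem than in niche in 4 of 7 cases. Of 15 listed, 8 were in the table and 7 tested, and 1 was lower in stem than in progenitor, 4 lower in stem than in niche and 2 lower in progenitor than in niche, with 0 higher in any. Over all tested genes 7.27%, 21.9% and 11.7% were called in either direction in these comparisons. Car4, an enzyme anchored on the outer membrane of vessels and other cells, was at 3.61 ± 2.81, 51.6 ± 48.2 and 177 ± 124 in stem, progenitor and niche (SD, n = 4). Stem minus progenitor was -3.28 ± 0.59 (limma adjusted p = 0.00268) and stem minus niche -5.22 ± 0.59 (1.5e-05). Progenitor minus niche was -1.94 ± 0.59 (limma adjusted p = 0.0435), a call lost in 13 of 20 alternatives (0.00417 to 0.146). Car12, a transmembrane enzyme, followed the order of Neu4, with 0.204 ± 0.118, 0.454 ± 0.232 and 21.0 ± 15.3, and differed by -3.61 ± 0.52 for progenitor minus niche (limma adjusted p = 0.000297). Car11, a family member without catalytic activity, was lower in stem than in niche (-2.90 ± 0.71, limma adjusted p = 0.00844), and Car10, of the same kind, too (-2.42 ± 0.83, 0.0481). The call of Car10 was lost in 16 of 20 alternatives (0.000352 to 0.13).

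Of the sialidases other than Neu4, Neu1 alone was tested, and Neu3 was not in the deposited table. Neu1, the lysosomal sialidase, was at 12.7 ± 10.5, 7.92 ± 1.56 and 17.9 ± 11.3 in stem, progenitor and niche (SD, n = 4) and was not called in any comparison (limma adjusted p = 0.866, 0.560 and 0.348). Neu2, the cytosolic sialidase, was at most at 2.47 in any library and did not pass the filter. Of 15 tested genes of sialic acid metabolism, 1 was higher and 1 lower in stem than in progenitor (3.74% and 3.53% of all tested genes), 4 were lower in stem than in niche (10.6%) and 1 was lower in progenitor than in niche (5.67%). Of the 4, 1 was called in all 20 alternatives, while Cmas, which activates sialic acid, lost its call in 15 (adjusted p 0.0168 to 0.167) and St6gal2, a sialyltransferase, in 12 (0.00181 to 0.102). The progenitor call, Ctsa, was lost in 4 (0.00617 to 0.121). St8sia3, a sialyltransferase that extends sialic acid chains, was at 0.873 ± 0.815, 12.8 ± 1.82 and 24.0 ± 14.2, with stem minus progenitor at -2.96 ± 0.61 (limma adjusted p = 0.00652). B4galnt1, which makes the core of complex gangliosides, was lower in stem than in niche (-2.59 ± 0.69, limma adjusted p = 0.0140), but not with only these 2 groups in the fit (0.0509, the highest over the alternatives, which began at 2.6e-05). Ctsa, the protective protein of lysosomal Neu1, was higher in stem than in progenitor (1.74 ± 0.34, limma adjusted p = 0.00463), where all 7 tested macrophage genes were also higher. Their summed level was 1974 to 7550 in stem and 116 to 231 in progenitor, and their part in the Ctsa value was not tested.

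Claudins and other tight junction genes had 9 of 33 listed in the table and 6 tested. Of these 2 were lower in stem than in progenitor, 4 lower in stem than in niche, and 3 lower and 1 higher in progenitor than in niche. Over all tested genes these shares were 3.53%, 10.6%, 5.67% and 6.07%. Among the progenitor calls, Cldn5 and Cldn10 were each lost in 11 of 20 alternatives (adjusted p 0.00746 to 0.116 and 0.0062 to 0.115), and the stem against niche call of Cldnd1, a claudin domain gene, in 10 (0.017 to 0.285). Cldn10, a claudin of astrocytes and epithelia, was at 27.5 ± 6.68, 136 ± 48.8 and 397 ± 285 in stem, progenitor and niche (SD, n = 4), with stem minus progenitor at -2.24 ± 0.40 (limma adjusted p = 0.00271) and stem minus niche at -3.59 ± 0.40 (1.43e-05). F11r, a junctional adhesion molecule, had the order of Neu4, at 3.94 ± 2.48, 3.85 ± 1.24 and 115 ± 35.4, with progenitor minus niche at -4.54 ± 0.45 (limma adjusted p = 1.47e-05). Cldn3 was high in progenitor, at 31.2, 12.2, 8.77 and 5.26 in replicates 1 to 4, against at most 0.137 in stem and 4.01 in niche. It differed by -3.60 ± 0.55 for stem minus progenitor (limma adjusted p = 0.0009) and 2.55 ± 0.55 for progenitor minus niche (0.00719), both called in all 20 alternatives. Cldn5, the claudin of vessel walls, was at 3.37 ± 2.84 in stem and 76.4 ± 89.6 in niche (SD, n = 4), with stem minus niche at -3.66 ± 0.95 (limma adjusted p = 0.0119).

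Markers of cells that can also hold Car2 or Cldn11 did not share one order. Counts of their members are to be read against all tested genes, of which 3.53% were called lower in stem than in progenitor, 10.6% lower in stem than in niche and 5.67% lower in progenitor than in niche (11.7% in either direction). Red cell genes, a known site of Car2, summed to 244 to 2093 for stem, 625 to 3424 for progenitor and 36970 to 1044000 for niche. Choroid plexus genes summed to 25.5 to 95.8, 271 to 622 and 4185 to 9394, with Ttr, the thyroid hormone carrier, taking most of it in niche, and lower in progenitor than in niche (-5.27, limma adjusted p = 2.11e-05). Meninges and fibroblast genes, of cells that can hold Cldn11, summed to 7.87 to 68.7 for stem, 111 to 279 for progenitor and 62.7 to 152 for niche over 9 of 16 genes. Of these, 4 of 9 were lower in stem than in progenitor, as the decorin gene Dcn (-3.41, limma adjusted p = 0.00238). Mural genes shared the order of Car2 and Cldn11, with 4 of 5 lower in stem than in progenitor, 4 of 5 lower in stem than in niche and 0 of 5 called for progenitor against niche. Vtn was at 1156, 563, 495 and 526 in progenitor replicates 1 to 4 and at 131.5, 60.8, 38.6 and 7.73 in stem. Astrocyte genes were lower in stem than in progenitor in 4 of 8 cases and than in niche in 8 of 8. The part of these cells in the levels of Car2 and Cldn11 was not tested. Mature neuron genes, of which 5 of 14 were in the table, were lower in progenitor than in niche in 4 of 5 cases, as Neu4 was by value, and their part in the Neu4 level was not tested.

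**Figure D4:**
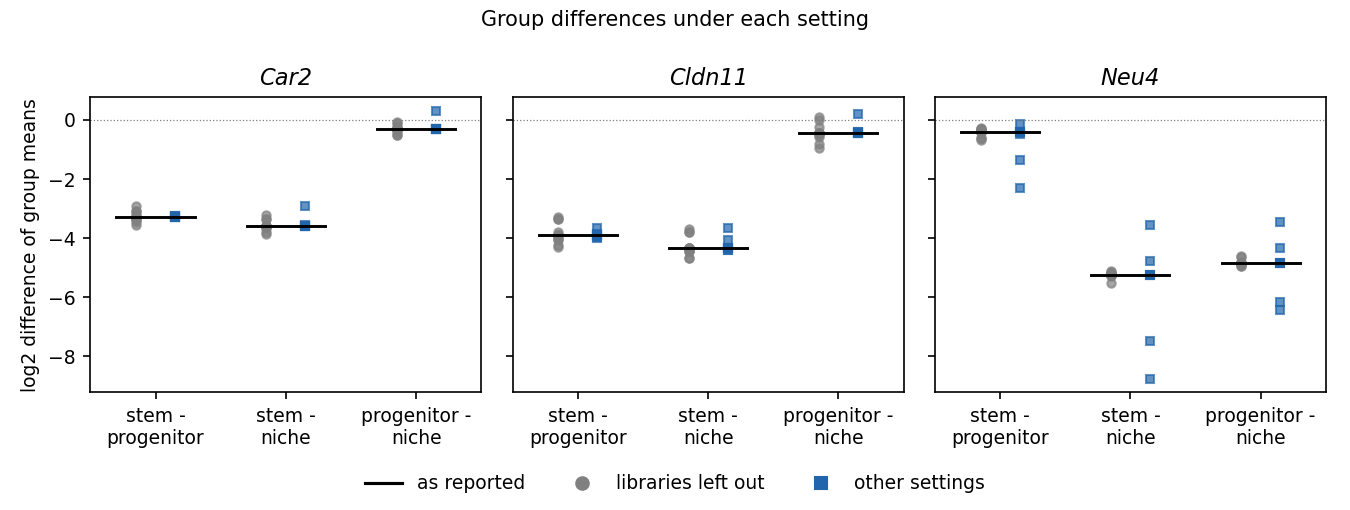
Log2 differences of group means for Car2, Cldn11 and Neu4 as reported (line), with libraries left out (grey circles) and under other settings (blue squares). Car2 and Cldn11 stay at or below -2.91 for both stem comparisons. For progenitor minus niche Car2 runs from -0.52 to 0.32 and Cldn11 from -0.95 to 0.19. The values of Neu4 against niche run from -8.77 to -3.45.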

How the data were processed

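RNA of 12 libraries, 4 per population, was analysed. Per the labels' protocols, dentate gyrus cells were sorted by FACS and the RNA of 1000 cells was amplified before library preparation. The deposited table holds log2 values, read as log2(RPKM + 1) although its name speaks of processed counts. The genome build was GRCm38 (mm10), per the submitters' processing notes. Aligner, counter, strand handling and gene selection were not given in the sources used here. Undoing the log gave whole reads for 100.0% of the values above 0, within 2e-05 reads, with the exon length equal to the GENCODE M21 length for 1237 genes and found from the values for 9273. For the latter the length was the smallest that made every library whole, so their whole reads are no check. The recovered reads of the listed genes summed to 100.02% to 100.04% of the recovered library totals. The depth was 7597256 to 22854036 reads per library, so the floor of 3 reads was 0.131 to 0.395 CPM, and floors cover counting error only. Of 10749 identifiers 10579 matched a symbol.

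The filter kept 8363 genes with 0.767 CPM (10 reads in the median library) in 4 or more libraries and 15 reads in all. RPKM was divided by TMM factors, a pseudocount of 1 RPKM was used, and limma 3.58.1 (R 4.3.3; trend and robust options) estimated each group's mean log2 value from the 12 libraries together, two-sided, with Benjamini-Hochberg adjustment over all genes. Differences on this scale understate the change of low genes. The members and all lists were chosen with earlier results of these data known. Named genes were, per list and comparison, up to 4 called genes with the largest difference and up to 2 uncalled ones with the highest level, any listed member of the enzyme and claudin families, the 5 genes most like each member, and the leading markers of other cells. Mbp, Mobp, Cnp, Olig1, Olig2 and list members named for losing a call, were named after their values had been seen. In all, 20 alternatives were run: other scaling, pseudocounts, filter, test, libraries and a replicate block. The promoter of Car2 and all protein sequences were not analysed here. A mature gene in the counts and other items are not reported here by name.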

Additional observations from a re-analysis of the deposited data

Results flagged for a closer look

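Neu4 in stem replicate 1 was at 1.2 on the log2(TMM-scaled RPKM + 1) scale, from 64 reads, while the other 3 stem libraries lay between 0.02 and 0.15, from 1 to 6 reads. The gap to the nearest of them took 0.888 of the group's range, above the limit used for 4 samples. Of 9 such groups looked at (3 genes in 3 populations), chance alone flags about 1 in 20. The same library had the highest stem values of Car2, at 206.1, and of Cldn11, at 42.9.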

How the results depend on the processing

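The 20 alternatives left the sign of each Car2 and Cldn11 difference against stem as reported, from -3.55 to -2.91 and -4.31 to -3.28 for stem minus progenitor and from -3.85 to -2.92 and -4.69 to -3.67 for stem minus niche. Scaling by library size alone moved Car2 stem minus niche to -2.92 and Neu4 to -4.77 (stem minus niche) and -4.32 (progenitor minus niche), and gave 1839 genes for progenitor against niche. It raised the median of all genes from 0.11 to 0.58 for stem minus niche and from 0.18 to 0.62 for progenitor minus niche, and the split of calls from 942 higher and 886 lower to 2018 and 586 for stem against niche and from 508 and 474 to 1525 and 314 for progenitor against niche. Neu4 is low, so its difference depended on the pseudocount. With 0.1 RPKM it was -1.34 (stem minus progenitor), -7.50 (stem minus niche) and -6.16 (progenitor minus niche), and with 4 RPKM -3.57 and -3.45 against niche. With voom on the recovered reads it was -2.32, -8.77 and -6.45. With only the compared groups in the fit, the counts of 608 and 982 genes for stem against progenitor and progenitor against niche became 1412 and 542, and the precursor count for stem against progenitor became 5. Without progenitor replicate 1 and niche replicate 1, 1134, 3031 and 1992 genes were called for stem against progenitor, stem against niche and progenitor against niche, with 6 precursor genes (5 lower, 1 higher) in the first and 1 mature gene, Gal3st1, in the last. Leaving out 1 library gave 370 (without stem replicate 2) to 1115 (without niche replicate 1) genes for stem against progenitor and 543 (without progenitor replicate 3 or 4) to 1668 (without niche replicate 1) for progenitor against niche, where 567 remained without progenitor replicate 2. It gave 2 to 4 precursor genes for stem against progenitor, and 0 to 1 mature genes for progenitor against niche, the 1 being Gal3st1 without progenitor replicate 1. Causes were not tested.

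The labels number replicates 1 to 4 in every group. Deviations of same-numbered libraries from their group means had r from -0.127 to 0.205, over 0.1 in 2 of 12 pairs. In replicates 1 to 4 it was -0.127, 0.074, -0.007 and 0.006 for stem with progenitor. It was -0.088, 0.036, 0.024 and 0.003 for stem with niche and 0.164, 0.029, 0.205 and 0.09 for progenitor with niche. Such values cannot show whether same-numbered libraries shared animals or a sort, which was not tested. With the replicate block 616, 1829 and 948 genes were called, and a library correlated best with its own number in 4 of 12 cases. Depth limits Neu4 in stem, where 2 libraries held 3 reads or fewer. Amplified reads without molecular identifiers do not count molecules.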
